A study of Mus musculus with 24 samples.

Results

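The genes described here encode enzymes that attach a polar group to hormones, bile acids, fatty acids and drugs, together with flavin monooxygenases and carboxylesterases, which oxidise or hydrolyse many of the same compounds. A gene was a member if its only annotated symbol began with Ugt1 to Ugt3, Sult or Fmo and a digit, Papss, Ces and a digit, or Gst followed by a, m, p, t, k, o or z, leaving out Sult2a8 and Ugt2b38. Of the 18194 genes with a probe set on the array, 60 were members: 9 UDP-glucuronosyltransferases (Ugt), 12 sulfotransferases (Sult), the 2 PAPS synthases (Papss), 20 soluble glutathione S-transferases (Gst), 4 flavin monooxygenases (Fmo) and 13 carboxylesterases (Ces). The rule itself uses names only, but it was set with earlier results of these data known.

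The study measured liver RNA of male mice with different forms of thyroid hormone receptor β (TRβ), each with and without triiodothyronine (T3), on 24 Affymetrix-type arrays in 8 groups of 3. In a first submission, mice labelled wild type (WT), Thyroid hormone receptor beta knock out (KO), or TRβ E125G, G126S mutant (GS), all on a C57BL/6J background and aged 8 to 9 weeks, drank 0.02% methimazole, 0.5% perchlorate and 0.3% saccharin and ate a low-iodine diet for 3 weeks. A later submission holds mice labelled TRbeta, Y147F, of strain C57BL/6JCrl, aged 10 to 11 weeks, which had 0.05% methimazole and 1% perchlorate for 3 weeks. All groups were therefore hypothyroid by treatment, the controls too. T3 (20 µg per 100 g, written as 200 ng per g in the later labels) or phosphate-buffered saline (PBS) was given, and livers were taken 6 h after T3. As background, the GS change removes DNA binding by TRβ and the Y147F change its coupling to phosphatidylinositol 3-kinase; the receptor is altered in every tissue in such lines, not in the liver alone. Genotype and submission cannot be told apart where Y147F mice are set against the other genotypes. Each title carries a different number, so the arrays were taken as separate mice, and p-values measure only the spread between these arrays.

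As background, sulfotransferases need the activated sulfate donor PAPS, which the bifunctional enzymes Papss1 and Papss2 make from ATP and inorganic sulfate. UDP-glucuronosyltransferases move glucuronic acid from its UDP-linked form to bilirubin, steroids, iodothyronines and drugs, and cytosolic glutathione transferases join glutathione to electrophiles. Flavin monooxygenases add oxygen to nitrogen and sulfur atoms, and carboxylesterases cleave esters and amides, with some members acting on triglyceride and cholesteryl ester in the hepatocyte. Liver is a main site of these reactions, and sulfation and glucuronidation are themselves routes by which thyroid hormone is inactivated. Ligand-bound TRβ acts with the retinoid X receptor on DNA elements built from the hexamer AGGTCA, classically a direct repeat of it with a spacer of 4 bases.

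Papss2, Fmo2 and Sult1b1 were the members whose T3 response differed between genotypes by test (values follow), and for this reason the 250 bases upstream of a RefSeq start of each are printed (RefSeq, GRCm38.p6, 5′ to 3′ on the gene's strand). Each gene has 2 annotated starts, and the one printed was picked because its window holds the hexamer AGGTCA. Capitals mark AGGTCA or its reverse complement TGACCT, searched on both strands. They lie at chr19:32619755-32620004 (Papss2, plus strand), chr1:162898494-162898743 (Fmo2, minus strand) and chr5:87538196-87538445 (Sult1b1, minus strand).
Papss2: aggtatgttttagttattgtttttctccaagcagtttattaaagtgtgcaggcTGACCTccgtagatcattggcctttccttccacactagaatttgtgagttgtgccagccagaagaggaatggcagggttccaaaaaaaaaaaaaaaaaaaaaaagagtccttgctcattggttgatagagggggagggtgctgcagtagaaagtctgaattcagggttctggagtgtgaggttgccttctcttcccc
Fmo2: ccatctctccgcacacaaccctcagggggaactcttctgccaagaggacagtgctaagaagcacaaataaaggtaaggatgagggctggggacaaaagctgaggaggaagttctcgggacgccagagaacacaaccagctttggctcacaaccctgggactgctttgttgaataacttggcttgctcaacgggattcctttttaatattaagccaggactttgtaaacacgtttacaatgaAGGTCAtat
Sult1b1: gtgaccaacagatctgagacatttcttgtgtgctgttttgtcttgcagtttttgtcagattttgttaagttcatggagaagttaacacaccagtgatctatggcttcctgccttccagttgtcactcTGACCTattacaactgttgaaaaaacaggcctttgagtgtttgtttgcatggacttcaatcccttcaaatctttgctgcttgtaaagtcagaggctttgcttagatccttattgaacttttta
The other start of each of the 3 genes has no AGGTCA in its upstream 250 bases; the printed start lies 24290 bases downstream of it in Papss2 and 265 bases downstream in Fmo2, and upstream of it in Sult1b1. The hexamer was found in 4607 of 32851 RefSeq promoters of this length (14%) and in 12 of the 64 promoters listed for 51 member genes. The direct repeat, AGGTCA again after any 4 bases, stood in 5 promoters of the genome (0.0152%) and in no member's. TGACNNNGC, the core of the antioxidant response element bound by NRF2, was in 3338 promoters (10.2%) and in those of 3 members, Gsta3, Gstm5 and Gstm7. These matches describe letters in a window and show no binding.

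Values are RMA log2 intensities, a relative brightness of 1 probe set per gene (the brightest over all arrays), and levels of different genes cannot be compared. Testing was limited to genes at or above the array's 40th percentile (5.32 to 5.45) on 3 or more arrays, and 52 members met this. The 8 members not tested were Ces2f, Gsto2, Sult1c1, Sult1e1, Sult2a2, Sult2b1, Sult3a1 and Sult6b1, so sulfotransferases gave 6 of the 8; Sult1e1 encodes the estrogen sulfotransferase. Of these, Sult3a1 passed in a single array, GS T3 replicate 1, at 6.17, and lay at 3.84 to 4.74 in the other 23. Ces2b passed the filter through 4 arrays, Sult4a1 through 6 and Ugt2b37 through 11, so their lower values lie near the dim end of the array. Several families are close paralogs in gene clusters, such as the 7 Gstm genes and a run of 10 Ugt2 and Sult1 genes in RefSeq order. Cross-hybridisation between such paralogs cannot be seen in these values, and for 8 members the brightest probe set carries a suffix that marks probes shared with other transcripts (Ces1f, Ces5a, Fmo5, Gstm3, Gsto1, Sult6b1, Ugt2b34 and Ugt3a1).

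**Figure D1:**
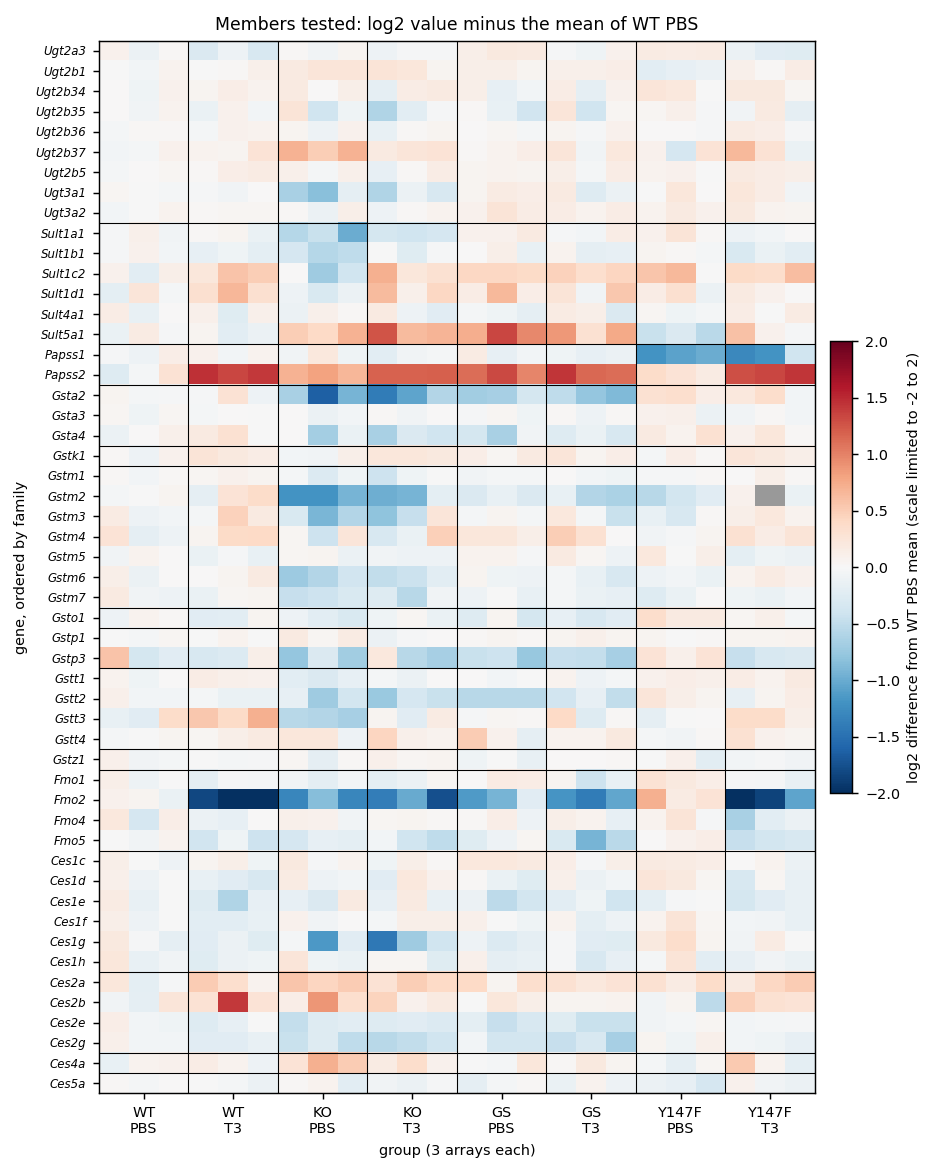
Heat map of the 52 tested members (rows, by family) on the 24 arrays (columns, by group); colour is the log2 value minus the mean of the WT PBS arrays, limited to the range −2 to 2. Papss2 and Fmo2 are the rows with the widest colour change between PBS and T3 arrays of WT and Y147F mice, and the KO columns are bluer than the WT PBS columns over Gsta2, Gstm2, Gstm6 and Gstt2; the grey cell is Gstm2 in Y147F T3 replicate 2, a missing value.

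The tissue label was borne out by the hepatocyte list: the summed level of 8 markers (log2 of the summed intensities) was 17.43 to 17.51 on all 24 arrays. The brightest genes set this sum, such as Alb (mean 15.18 in WT PBS mice), while Ass1 averaged 7.96 there. The sum therefore says little about differences in hepatocyte content between arrays. Of 6 T3 target genes used as a check, 5 rose in WT and in Y147F mice and 1, Dio1, rose in KO and in GS mice (log2 difference 6.63 in WT, 1.82 in KO, 2.52 in GS and 7.52 in Y147F). The Thrb probe set itself lay at 6.82 to 7.25 on KO arrays and 6.38 to 7.01 on WT arrays and so showed no loss in KO; whether its probes lie in the deleted part is not known here, so it checks nothing. Tests were limma's moderated tests in 1 model of all 24 arrays, two-sided, with Benjamini-Hochberg adjustment across all 14161 genes tested, and a difference was called at an adjusted p under 0.05.

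With T3, members were called at a share near that of all genes in WT and in Y147F mice. In WT mice 2 members rose, Papss2 and Gstt3, and 2 fell, Fmo2 and Ugt2a3, together 7.69% of the 52 tested, while 10.6% of all genes tested were called (5.72% higher and 4.89% lower). In Y147F mice 3 rose (Papss2, Sult5a1 and Ugt2b1) and 5 fell (Fmo2, Fmo5, Fmo4, Ugt2a3 and Gstm5), 15.4% of the members against 11.6% of all genes (5.52% higher, 6.09% lower). In KO and in GS mice limma called 0 members, with backgrounds of 0.177% (0.127% higher and 0.0494% lower) and 0.148% (0.134% higher and 0.0141% lower); an unadjusted p under 0.05 was reached by 12 members in KO and by 4 in GS, against 14 in WT and 17 in Y147F. The arrays of PBS and T3 did not overlap for 15 members in WT (28.8%; 29.5% of all genes did so), 24 in Y147F (46.2%; 26.0%), 11 in KO (21.2%; 15.2%) and 5 in GS (9.62%; 13.1%). The median member difference was 0.00 in WT, KO, GS and Y147F alike, beside −0.03, −0.01, 0.00 and −0.01 over all genes. The T3 comparisons of different genotypes use different arrays, but every difference of a response from that of WT shares the WT arrays.

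Papss2, which makes PAPS in liver, had the largest rise. Its log2 level in WT PBS mice was 10.40, 10.61 and 10.94 on the 3 arrays, and in WT T3 mice 12.11, 11.98 and 12.07. Every T3 array lay more than 1 log2 unit above every PBS array, a difference of 1.40 ± 0.11 (SE, n = 3 per group; 2.64-fold; limma adjusted p = 1.52e-08). In Y147F mice the 3 PBS arrays read 11.01, 10.92 and 10.82 and the T3 arrays 11.94, 11.99 and 12.09, again without overlap, for a rise of 1.09 ± 0.11 (2.12-fold; limma adjusted p = 7.97e-07). The T3-treated levels of these genotypes thus lay close together, at means of 12.05 in WT and 12.00 in Y147F. Those of the other genotypes were not far below, at means of 11.84 in KO and 11.88 in GS. Of the 4 Papss2 probe sets, 3 gave a WT difference of 1.40 to 1.48, and the remaining, dim, set gave 0.05.

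In mice without functional DNA binding or without TRβ, Papss2 was already high before T3. KO PBS arrays read 11.35, 11.46 and 11.32 and KO T3 arrays 11.83, 11.84 and 11.85, a difference of 0.46 that missed the threshold (limma adjusted p = 0.0928) although the arrays did not overlap. GS PBS arrays read 11.76, 11.97 and 11.62 and GS T3 arrays 12.08, 11.80 and 11.77, which overlap, with a difference of 0.10 (limma adjusted p = 0.923). The T3 response of Papss2 was smaller than in WT by 0.94 ± 0.16 in KO (difference −0.94; limma adjusted p = 0.00107) and by 1.30 ± 0.16 in GS (difference −1.30; limma adjusted p = 2.33e-05). The Y147F response differed from that of WT by −0.32, with a 95% interval of −0.64 to 0.01. Among PBS mice Papss2 was higher than in WT by 0.73 ± 0.11 in KO and by 1.13 ± 0.11 in GS, and the same WT PBS arrays enter both of these and the response differences.

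Papss1, the other PAPS synthase, did not follow. It stood at 9.27 to 9.70 on all WT, KO and GS arrays, and its T3 difference in WT was 0.04. Y147F PBS arrays read 8.30, 8.42 and 8.50 and Y147F T3 arrays 8.21, 8.29 and 9.09, all of them below every array of the first submission. In PBS mice the difference from WT was −1.08 ± 0.15 (limma adjusted p = 0.00987), and it was the only member called between Y147F and WT PBS mice (1.92% of the members; 0.0847% of all genes, 0.0424% lower). Without WT PBS replicate 3 this p was 0.0679 and without Y147F PBS replicate 2 it was 0.0768, and genotype cannot be told apart from submission.

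**Figure D2:**
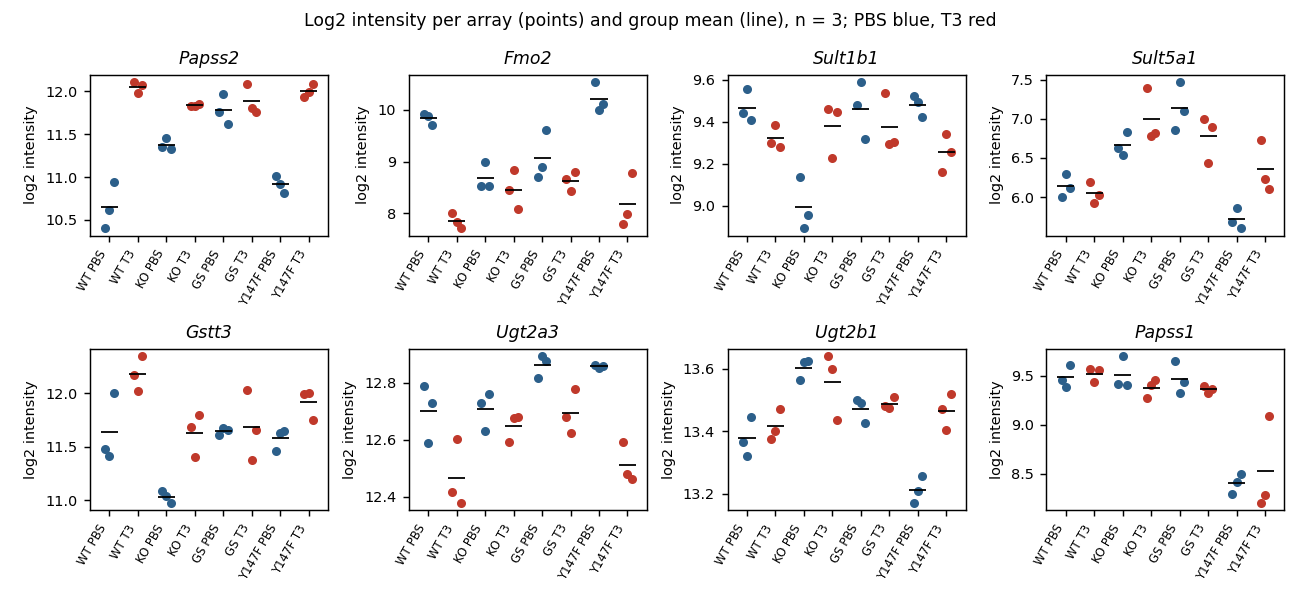
Log2 intensity (vertical axes, not starting at 0) of Papss2, Fmo2, Sult1b1, Sult5a1, Gstt3, Ugt2a3, Ugt2b1 and Papss1 on every array of the 8 groups; points are arrays and lines are group means of 3. Papss2 rose and Fmo2 fell without overlap in WT and Y147F, while in KO and GS the PBS arrays of both genes already lay between the WT PBS and WT T3 levels.

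With T3, limma called 0 of the 6 sulfotransferases tested in WT (2 at an unadjusted p under 0.05) and 0 in KO (4 unadjusted). It called 0 in GS (0 unadjusted) and 1 in Y147F. Of all genes 10.6%, 0.177%, 0.148% and 11.6% were called in the same order, so counts among 6 genes say little. The medians of the 6 were −0.02 in WT, 0.36 in KO, −0.08 in GS and 0.01 in Y147F. PBS and T3 arrays did not overlap for 3, 4, 0 and 3 of them (29.5%, 15.2%, 13.1% and 26.0% of all genes). Sult1b1, a family member that acts on phenols and iodothyronines, had a response in KO that differed from WT. Its WT PBS arrays read 9.44, 9.55 and 9.41 and its WT T3 arrays 9.30, 9.38 and 9.28, a difference of −0.15 that was not called. Its KO PBS arrays, at 9.14, 8.89 and 8.96, lay below all WT arrays, and its KO T3 arrays, at 9.46, 9.22 and 9.45, lay above the KO PBS arrays and within or near the WT range. The KO difference of 0.38 was not called (limma adjusted p = 0.0818), but the response exceeded that of WT by 0.53 ± 0.12 (limma adjusted p = 0.0189).

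That call was not stable to single arrays: the adjusted p for Sult1b1 was 0.0505 without WT T3 replicate 3, 0.059 without WT PBS replicate 2, 0.0547 and 0.0533 without KO T3 replicate 1 or 3, and 0.0596 without KO PBS replicate 2. Without KO T3 replicate 2 the KO rise itself was 0.46 and was called (limma adjusted p = 0.0485). In GS mice Sult1b1 read 9.48, 9.59 and 9.32 with PBS and 9.53, 9.29 and 9.30 with T3, and in Y147F mice 9.52, 9.49 and 9.42 with PBS and 9.16, 9.34 and 9.26 with T3. The Y147F arrays did not overlap, at a difference of −0.23 that was not called. Sult1d1 and Sult1c2 had the smallest p of the uncalled sulfotransferases in WT, with differences of 0.44 and 0.43 there and of 0.56 and 0.78 in KO (limma adjusted p in KO 0.231 and 0.0698); Sult1c2 was called in KO without KO PBS replicate 1 (0.97, limma adjusted p = 0.0153).

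Sult5a1, a little-studied family member, rose with T3 in Y147F mice. The Y147F PBS arrays read 5.69, 5.86 and 5.60 and the T3 arrays 6.73, 6.22 and 6.11, without overlap (0.64 ± 0.19, limma adjusted p = 0.0274). WT arrays read 6.01, 6.29 and 6.11 with PBS and 6.20, 5.92 and 6.03 with T3, which overlap. These levels are close to the array median of 5.88 to 6.00. The Y147F call ended without PBS replicate 1 (0.0691), PBS replicate 3 (0.0924) or T3 replicate 1 (0.178), and its response did not differ from that of WT by test (0.73, limma adjusted p = 0.879).

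Of the 9 UDP-glucuronosyltransferases, 1 was called in WT and 2 in Y147F (11.1% and 22.2%, beside 10.6% and 11.6% of all genes). Ugt2a3, which glucuronidates bile acids, read 12.79, 12.59 and 12.73 on the WT PBS arrays and 12.42, 12.60 and 12.38 on the WT T3 arrays. The highest T3 array lay above the lowest PBS array, the only overlap among the 38 called differences between 2 groups, and the fall was −0.24 ± 0.07 (limma adjusted p = 0.0296). It was not called without WT T3 replicate 1 (0.106) or 3 (0.144) or WT PBS replicate 1 (0.147) or 3 (0.0873). In Y147F mice the arrays stood apart, 12.86, 12.85 and 12.86 with PBS and 12.59, 12.48 and 12.46 with T3, a fall of −0.35 ± 0.07 (limma adjusted p = 0.00166) that was called in every alternative and every fit without 1 array. Ugt2a3 was not called in KO, where the arrays read 12.73, 12.63 and 12.76 with PBS and 12.59, 12.68 and 12.68 with T3. It was not called in GS either, where they read 12.82, 12.89 and 12.88 against 12.68, 12.62 and 12.78.

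Ugt2b1, a bright member of the Ugt2b cluster, rose slightly in Y147F mice, from 13.17, 13.21 and 13.26 to 13.47, 13.40 and 13.52 (0.25 ± 0.06, limma adjusted p = 0.00681). The Y147F T3 arrays lay within or just above the range of the WT arrays, which read 13.37, 13.32 and 13.45 with PBS and 13.38, 13.40 and 13.47 with T3. In KO mice it read 13.56, 13.62 and 13.62 with PBS and 13.64, 13.60 and 13.44 with T3, and in GS mice it stayed between 13.43 and 13.51. The other 7 Ugt members were called in no T3 comparison.

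Glutathione transferases made up 19 of the 52 tested members, and T3 called 1 of them in WT, 0 in KO (5 unadjusted), 0 in GS (0 unadjusted) and 1 in Y147F. Each single call is 5.26% of the 19. Of all genes 10.6%, 0.177%, 0.148% and 11.6% were called in the same order. Gstt3, a theta-class enzyme, read 11.48, 11.41 and 12.01 in WT PBS mice and 12.17, 12.02 and 12.35 in WT T3 mice. The lowest T3 array exceeded the highest PBS array by a narrow margin, with a rise of 0.55 ± 0.15 (limma adjusted p = 0.0208). It was not called without WT T3 replicate 1 (0.0527) or 3 (0.106) or WT PBS replicate 1 (0.103) or 2 (0.119). In KO mice Gstt3 read 11.08, 11.04 and 10.98 with PBS and 11.68, 11.41 and 11.79 with T3, a difference of 0.59 that was not called (limma adjusted p = 0.115). In GS mice it read 11.61, 11.67 and 11.66 against 12.03, 11.38 and 11.65, a difference of 0.04. In Y147F mice it read 11.46, 11.63 and 11.65 against 12.00, 12.01 and 11.75 (0.34, limma adjusted p = 0.164).

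Gstm5, a mu-class enzyme, was the other transferase called, in Y147F mice, from 9.80, 9.58 and 9.70 to 9.39, 9.50 and 9.47 (−0.24 ± 0.07, limma adjusted p = 0.0423). That call ended without PBS replicate 1 (0.171) or 3 (0.0931) and without T3 replicate 1 (0.164), 2 (0.0635) or 3 (0.0681). WT arrays of Gstm5 read 9.51, 9.66 and 9.60 with PBS and 9.45, 9.56 and 9.45 with T3, which overlap. Gstk1, a mitochondrial and peroxisomal transferase, had the smallest p among the uncalled transferases in WT (0.20, limma adjusted p = 0.0737).

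The flavin monooxygenases lay mostly on the same side of 0. All 4 lay below 0 in WT with T3 (1 called, median −0.19), all 4 in Y147F (3 called, median −0.45), all 4 in GS (0 called, 2 unadjusted) and 3 in KO (0 called, 0 unadjusted). Of all genes 10.6%, 11.6%, 0.148% and 0.177% were called in the same order, so counts among 4 genes say little. Fmo4, Fmo1 and Fmo2 are neighbours in RefSeq order. Fmo2, known mainly as the lung isoform and present at lower abundance in rodent liver, read 9.92, 9.89 and 9.71 in WT PBS mice and 8.01, 7.83 and 7.71 in WT T3 mice, a fall of −1.98 ± 0.24 (3.96-fold; limma adjusted p = 6.54e-06). The highest T3 array lay far under the lowest PBS array. In Y147F mice it read 10.54, 10.00 and 10.11 with PBS and 7.79, 7.99 and 8.79 with T3, also apart, a fall of −2.03 ± 0.24 (4.08-fold; limma adjusted p = 6.94e-06).

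In KO mice Fmo2 read 8.53, 8.99 and 8.54 with PBS and 8.45, 8.83 and 8.08 with T3, which overlap (−0.23, limma adjusted p = 0.818). In GS mice it read 8.70, 8.91 and 9.62 with PBS and 8.66, 8.44 and 8.80 with T3 (−0.44, limma adjusted p = 0.772). The PBS levels of KO and GS thus lay below every WT PBS array, as the Papss2 levels lay above. The response was less negative than in WT by 1.75 ± 0.34 in KO (limma adjusted p = 0.00473) and 1.54 ± 0.34 in GS (limma adjusted p = 0.013). The Y147F response differed from that of WT by −0.04, with a 95% interval of −0.76 to 0.67. Of the 5 Fmo2 probe sets, 4 gave differences of −1.98 to −1.18 in WT, and a dim set gave −0.02.

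In whole liver, fewer cells of a type and less RNA per cell cannot be told apart. Beside the fall of Fmo2, the summed level of 10 sinusoidal endothelium markers was 12.91 to 12.97 in WT T3 mice and 13.15 to 13.24 in WT PBS mice, with 10 of 10 markers below 0 and limma calling 0. The same sums were 12.96 to 13.17 against 13.20 to 13.33 in Y147F, 12.71 to 13.06 against 13.01 to 13.09 in KO and 12.89 to 12.99 against 13.11 to 13.14 in GS. Cholangiocyte sums were 9.03 to 9.12 against 9.29 to 9.60 in WT and 9.05 to 9.21 against 9.22 to 9.77 in KO. They overlapped in GS (9.19 to 9.38 against 9.20 to 9.38) and in Y147F (9.16 to 9.39 against 9.24 to 9.31). Lymphocyte sums were 9.13 to 9.23 against 9.29 to 9.41 in WT. They overlapped in KO (9.11 to 9.44 against 9.26 to 9.40), GS (9.23 to 9.74 against 9.26 to 9.36) and Y147F (9.11 to 9.28 against 9.25 to 9.57). Their part in the result was not tested.

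Fmo5, the Baeyer-Villiger type isoform, fell in Y147F mice from 12.91, 12.99 and 13.03 to 12.44, 12.53 and 12.58 (−0.46 ± 0.13, limma adjusted p = 0.0242). Its 3 probe sets gave −0.46 to −0.65 there. In WT mice it read 12.89, 12.83 and 12.97 with PBS and 12.51, 12.82 and 12.49 with T3 (−0.29, not called). In GS mice it read 12.66, 12.80 and 12.94 against 12.59, 11.96 and 12.36 (−0.49, limma adjusted p = 0.267). In KO mice it read 12.57, 12.73 and 12.70 against 12.85, 12.50 and 12.39, which overlap. The Y147F call ended without PBS replicate 2 (0.064) or 3 (0.0746) or T3 replicate 1 (0.0961) or 2 (0.0593).

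Fmo4 fell in Y147F mice from 7.91, 8.10 and 7.81 to 7.18, 7.62 and 7.72 (−0.43 ± 0.13, limma adjusted p = 0.0414). WT arrays read 8.05, 7.49 and 7.96 with PBS and 7.71, 7.67 and 7.85 with T3, which overlap. The call ended without PBS replicate 1 (0.0752) or 2 (0.16) or T3 replicate 1 (0.264) or 2 (0.0517). Fmo1, the main hepatic isoform of many mammals, was the closest to a call among members called nowhere (−0.27 in Y147F, limma adjusted p = 0.0659).

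No carboxylesterase was called for T3 in any genotype by limma: 0 of 12 tested in WT, KO, GS and Y147F, with 6, 1, 1 and 4 at an unadjusted p under 0.05. Of all genes 10.6%, 0.177%, 0.148% and 11.6% were called in the same order. The 6 Ces1 genes, which include enzymes of hepatic lipid turnover, lay below 0 in 5 of 6 cases in WT (median −0.19) and in 6 of 6 in Y147F (median −0.17). In KO and in GS they were split 3 and 3. Ces1e and Ces1f had the smallest p in WT, with differences of −0.34 and −0.19 (limma adjusted p = 0.131 and 0.148). Of the Ces2 genes, Ces2a gave 0.30 (limma adjusted p = 0.119) and Ces2b 0.66 (limma adjusted p = 0.0736). Ces2b lies near the detection filter, and WT T3 replicate 2, at 6.42 beside 5.29 and 5.28 on the other T3 arrays, carried much of its value, which was 0.28 without that array. Some alternatives called a carboxylesterase for T3. In WT, Ces2a was called with array weights (0.34, limma adjusted p = 0.0419) and without WT T3 replicate 3 (0.42, 0.0365) or WT PBS replicate 1 (0.41, 0.0408), and Ces2b without WT T3 replicate 1 (0.85, 0.0357) or 3 (0.86, 0.0341). In Y147F, Ces1f was called with array weights (−0.22, limma adjusted p = 0.0451) and Ces1d without T3 replicate 2 (−0.39, 0.047).

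**Figure D3:**
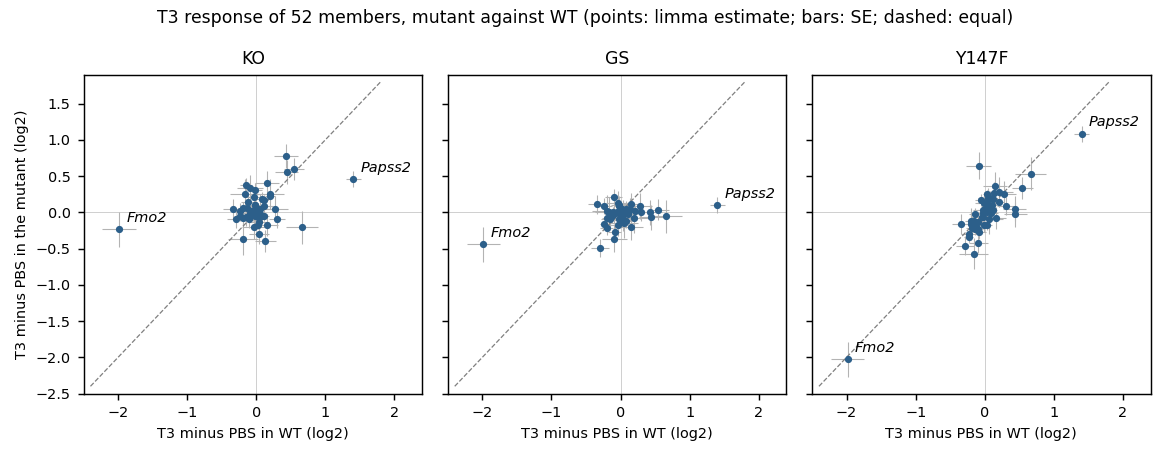
T3 minus PBS log2 difference of the 52 tested members in KO, GS and Y147F mice (vertical axes, a panel each) against the same difference in WT mice (horizontal axis); bars are standard errors and the dashed line marks equal responses. Papss2 and Fmo2 lie near the line in Y147F (1.09 and −2.03) and toward 0 on the vertical axis in KO (0.46 and −0.23) and GS (0.10 and −0.44).

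Tests of the responses against each other called 3 members between KO and WT (Papss2, Fmo2 and Sult1b1, 5.77% of the members; 3.09% of all genes, 1.03% higher and 2.05% lower). Between GS and WT they called 2 (Papss2 and Fmo2, 3.85%; 2.92% of all genes, 0.967% higher and 1.96% lower). Papss2 and Fmo2 were called in both in every alternative and every fit without 1 array. Between Y147F and WT limma called 0 members (2 unadjusted; 0% of all genes). Between GS and KO it called 0 as well (14 unadjusted; 0% of all genes); the smallest p there was that of Sult1b1, with a difference of −0.47 and a 95% interval of −0.73 to −0.21 (limma adjusted p = 0.662).

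Without T3, many of these enzymes differed between KO and WT mice. Between KO and WT PBS mice 5 members were higher and 13 lower, 34.6% of the 52 tested beside 6.87% of all genes (3.76% higher and 3.11% lower); 25 had an unadjusted p under 0.05. The arrays of 23 members (44.2%) did not overlap, against 23.6% of all genes. The median member difference was −0.05, and that of all genes 0.00. Between GS and WT PBS mice 2 members were higher and 2 lower (7.69%; 2.95% of all genes, 1.97% higher and 0.982% lower), with 14 members apart (26.9%; 20.4% of all genes). Between GS and KO PBS mice 3 were higher in GS and 0 lower (5.77%; 0.0847% of all genes, 0.0494% higher and 0.0353% lower), with 19 apart (36.5%; 14.4% of all genes). The Y147F arrays of 12 members (23.1%) stood apart from WT (17.7% of all genes). KO, GS and Y147F are compared with the same 3 WT PBS arrays.

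Of the 19 glutathione transferases tested, the largest family here, 7 were lower in KO, 0 higher, and 17 lay below 0 (median −0.22). Their share called, 36.8%, was near that of all members (34.6%) and of the Ugt, Sult and Ces members (33.3% each). Of all genes 6.87% were called. All 7 mu-class (Gstm) genes lay below 0, from −1.10 to −0.01, and 3 were called. Gstm4 read 11.56, 11.12 and 11.20 in WT and 11.34, 10.88 and 11.54 in KO, which overlap. KO PBS replicate 2 was the lowest KO PBS array for Gsta2, Gsta4, Gstm3, Gstm4 and Gstt2. The signs of these genes are therefore not independent of each other. Gstm2 read 11.92, 11.95 and 12.01 in WT PBS mice and 10.77, 10.77 and 11.03 in KO PBS mice, a difference of −1.10 ± 0.18 (2.14-fold lower; limma adjusted p = 0.000713). GS PBS arrays read 11.67, 11.81 and 11.66 and Y147F PBS arrays 11.40, 11.59 and 11.73, all between the WT and the KO arrays. Gstm6 read 11.80, 11.57 and 11.68 in WT and 10.96, 11.09 and 11.30 in KO (−0.57 ± 0.09, limma adjusted p = 0.000732), while GS arrays, at 11.73, 11.60 and 11.58, lay in the WT range. Gstm7 fell short of WT by less (−0.39 ± 0.10, limma adjusted p = 0.0197), from 11.07, 10.83 and 10.81 to 10.45, 10.49 and 10.60, and its other probe set gave 0.16.

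The alpha-class Gsta2, an abundant hepatic transferase and peroxidase, read 13.19, 13.10 and 13.11 in WT and 12.49, 11.51 and 12.21 in KO (−1.07 ± 0.20, limma adjusted p = 0.00269). Its KO arrays spread over a wider range than those of any other genotype; the GS arrays, at 12.44, 12.47 and 12.78, overlapped them and lay below WT by 0.57 (difference −0.57, limma adjusted p = 0.156). Y147F arrays read 13.44, 13.48 and 13.27. Of the 4 theta-class genes 3 were lower in KO: Gstt3 (−0.60 ± 0.15, limma adjusted p = 0.0171), Gstt2 (−0.41 ± 0.12, 0.0419) and Gstt1 (−0.22 ± 0.06, 0.023). Gstt2 was lower in GS as well, at 11.67, 11.67 and 11.67 against 12.33, 12.17 and 12.18 in WT (−0.56 ± 0.12, limma adjusted p = 0.0118), and without WT PBS replicate 1 that p was 0.0627.

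Among the sulfotransferases, Sult1a1, the main phenol sulfotransferase, was lower in KO. It read 12.80, 12.93 and 12.75 in WT, 12.26, 12.38 and 11.83 in KO, and 12.90, 12.92 and 13.00 in GS. KO lay below WT by 0.67 ± 0.10 (difference −0.67; limma adjusted p = 0.000541), and GS lay above KO by 0.78 ± 0.10 (limma adjusted p = 0.00133). Sult1b1 showed the same order, −0.47 ± 0.09 in KO against WT (limma adjusted p = 0.00233) and 0.47 ± 0.09 in GS against KO (limma adjusted p = 0.0408), from the array values given above. The latter call ended without KO PBS replicate 2 (0.131) or 3 (0.105) or GS PBS replicate 1 (0.0709), 2 (0.288) or 3 (0.0523).

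Sult5a1 went the other way: GS PBS arrays read 6.86, 7.47 and 7.10 and lay above WT by 1.01 ± 0.19 (limma adjusted p = 0.00311). KO PBS arrays read 6.63, 6.54 and 6.84 and also lay above all WT PBS arrays, by 0.53, which was not called (limma adjusted p = 0.0945). With T3 the KO arrays read 7.40, 6.78 and 6.82 and the GS arrays 7.00, 6.44 and 6.89. The T3 difference of Sult5a1 was not called in KO or GS.

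**Figure D4:**
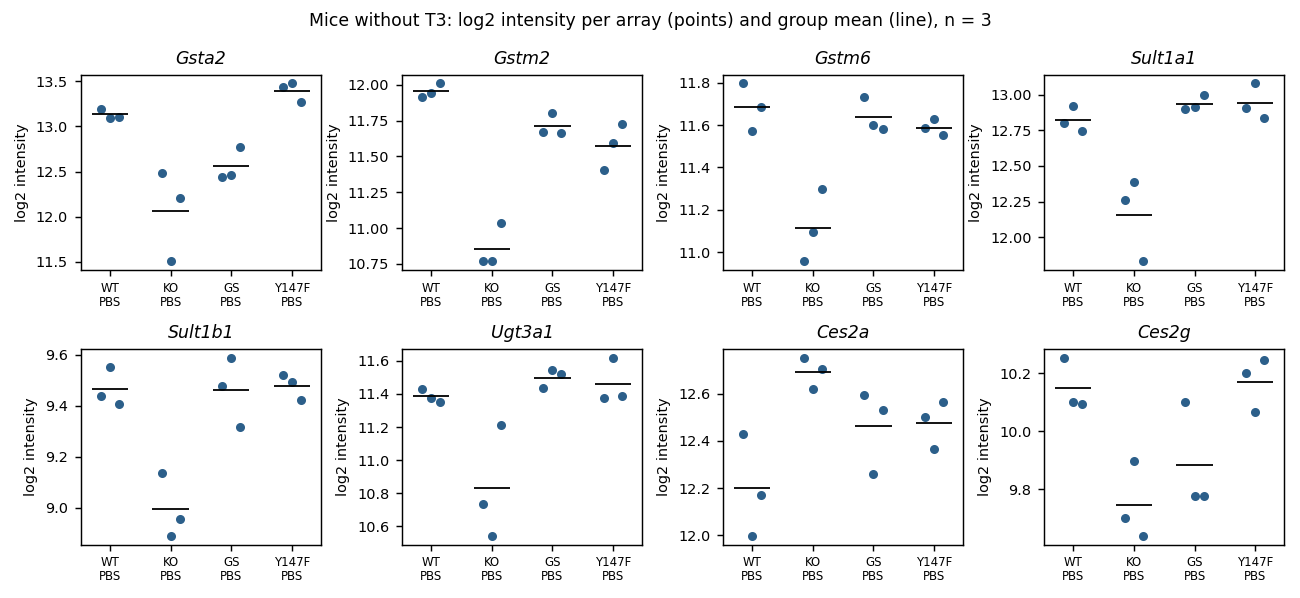
Log2 intensity (vertical axes, not starting at 0) of Gsta2, Gstm2, Gstm6, Sult1a1, Sult1b1, Ugt3a1, Ces2a and Ces2g on the PBS arrays of WT, KO, GS and Y147F mice; points are arrays and lines are means of 3. KO arrays are the lowest for Gstm2 (10.77 to 11.03), Gstm6 (10.96 to 11.30) and Sult1a1 (11.83 to 12.38), and the highest for Ces2a (12.62 to 12.75).

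Of the UDP-glucuronosyltransferases 2 were higher in KO and 1 lower. Ugt3a1, which transfers N-acetylglucosamine, read 11.43, 11.38 and 11.35 in WT and 10.74, 10.54 and 11.21 in KO (−0.56 ± 0.14, limma adjusted p = 0.0194); its other probe set gave −0.48. GS arrays of Ugt3a1, at 11.43, 11.54 and 11.52, stood apart from KO by 0.67, which was not called (limma adjusted p = 0.065), but was without KO PBS replicate 3 (0.86, 0.00546). Ugt2b1 was higher in KO by 0.23 ± 0.06 (limma adjusted p = 0.0232). Ugt2b37, at 5.18, 5.18 and 5.31 in WT and 5.92, 5.72 and 5.92 in KO, crossed the detection filter between these groups (0.63 ± 0.15, limma adjusted p = 0.0133).

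Carboxylesterases moved both ways. Ces2a rose from 12.43, 12.00 and 12.17 in WT to 12.75, 12.62 and 12.71 in KO (0.50 ± 0.12, limma adjusted p = 0.013), and Ces4a from 6.60, 6.82 and 6.84 to 7.02, 7.46 and 7.25 (0.49 ± 0.14, 0.0368). Ces2g was lower, at 10.25, 10.10 and 10.10 against 9.70, 9.90 and 9.64 (−0.40 ± 0.09, limma adjusted p = 0.0119). These genes lie in 1 cluster of 6 in RefSeq order, so neighbours differed in opposite directions. Ces2e was lower in KO (−0.32 ± 0.09, limma adjusted p = 0.0295) and in GS (−0.33 ± 0.09, 0.0433), with 11.73, 11.54 and 11.50 in WT, 11.12, 11.33 and 11.38 in KO and 11.39, 11.12 and 11.28 in GS. Of the 6 Ces1 genes 0 were called by limma (1 unadjusted).

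Fmo2 and Papss2 completed the KO list, at −1.15 ± 0.24 (limma adjusted p = 0.00603) and 0.73 ± 0.11 (limma adjusted p = 0.000417). In GS mice Papss2 was higher by 1.13 (limma adjusted p = 5.11e-06), and Fmo2 had a difference of −0.76 that was not called, but was called without GS PBS replicate 3 (−1.03, limma adjusted p = 0.0296). Between GS and KO, Gstm6 was higher in GS by 0.52 ± 0.09 (limma adjusted p = 0.03) and Gstm2 by 0.86, which missed the threshold (0.0589). All 7 Gstm genes lay above 0 (median 0.30), against the same KO arrays as above, so these signs are not independent either. The Gstm6 call ended without KO PBS replicate 1 (0.0722) or 2 (0.0785) or GS PBS replicate 1 (0.0676), 2 (0.102) or 3 (0.104). That of Sult1a1 held without any single array, but with only the KO and GS PBS arrays in the fit all 3 calls of this comparison ended (limma adjusted p = 0.158 to 0.201).

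Leaving out single arrays ended many of the smaller KO calls, and the adjusted p then took these values. For Ces2a it was 0.0867 without WT PBS replicate 2. For Ces2e it was 0.141 and 0.0561 without WT PBS replicate 1 or 2, and 0.142 and 0.0519 without KO PBS replicate 1 or 2. For Ces2g it was 0.0591 without WT PBS replicate 1 and 0.0701 without KO PBS replicate 3. For Ces4a it was 0.142, 0.0697 and 0.0565 without WT PBS replicate 1, 2 or 3, and 0.173 and 0.1 without KO PBS replicate 2 or 3. These are the carboxylesterases, all with differences of 0.50 or less.

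For the transferases, Gstm7 was at 0.106 without WT PBS replicate 1 and at 0.0681 and 0.0652 without KO PBS replicate 1 or 2. Gstt1 was at 0.1 and 0.0673 without WT PBS replicate 1 or 3, and at 0.0517 and 0.112 without KO PBS replicate 1 or 2. Gstt2 was at 0.14, 0.0812 and 0.0738 without WT PBS replicate 1, 2 or 3, and at 0.24 and 0.0824 without KO PBS replicate 2 or 3. The calls of Gstm2, Gsta2, Gstm6, Sult1a1, Sult1b1, Papss2 and Fmo2 in KO held in every alternative and every such fit. Gstt3 was at 0.109 without WT PBS replicate 3 and at 0.0695 without KO PBS replicate 3. Ugt2b1 was at 0.0637 and 0.11 without WT PBS replicate 1 or 2 and at 0.0781 and 0.0839 without KO PBS replicate 2 or 3; Ugt2b37 was at 0.0527 without WT PBS replicate 2 and 0.0601 without KO PBS replicate 3. Ugt3a1 was at 0.0623 and 0.057 without WT PBS replicate 1 or 2 and at 0.0683 and 0.12 without KO PBS replicate 1 or 2. In GS, Ces2e was at 0.195, 0.0807 and 0.051 without WT PBS replicate 1, 2 or 3, and at 0.202 and 0.111 without GS PBS replicate 2 or 3, while Papss2 and Sult5a1 held.

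Markers of other cells were also read in KO and WT PBS mice. Kupffer cell markers lay above WT in 10 of 10 cases with 1 called (Clec4f, 0.59). Their summed levels were 12.96 to 13.17 against 12.77 to 12.96, ranges that just overlap. Stellate cell sums were 12.68 to 13.01 against 12.48 to 12.76, which overlap, while the stellate marker Lrat was called lower (−1.15). Endothelial sums were 13.01 to 13.09 against 13.15 to 13.24, without overlap. Hepatocyte sums were 17.44 to 17.49 in KO and 17.45 to 17.49 in WT, with 0 of 8 markers called by limma. The brightest markers set these hepatocyte sums, which can hardly show a change in hepatocyte content. The part of any of these cells in the KO differences was not tested.

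**Figure D5:**
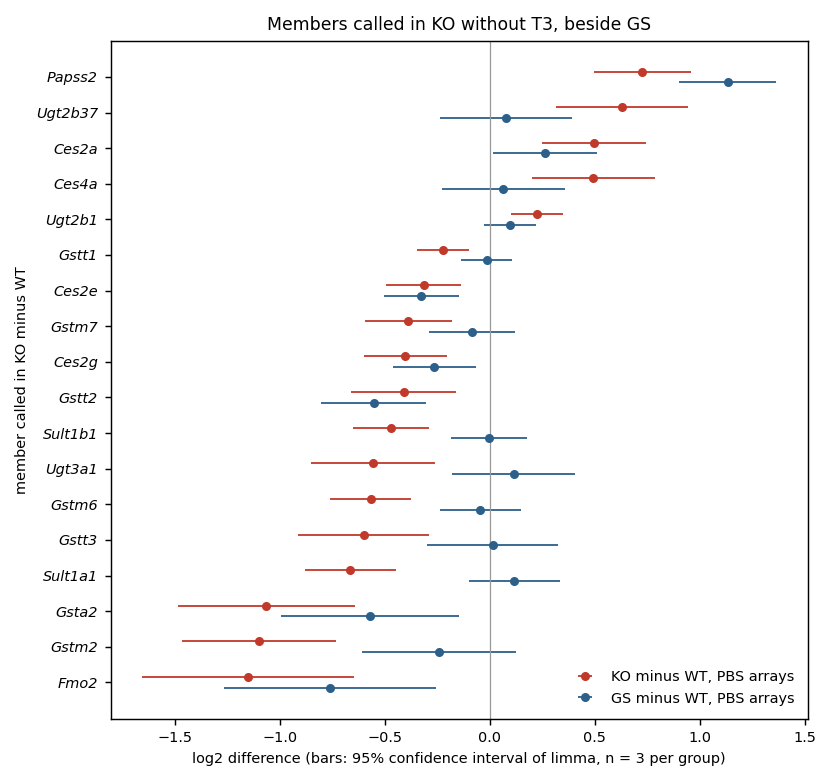
Log2 difference from WT among PBS mice (horizontal axis) for the 18 members called in KO, with 95% confidence intervals; red is KO and blue is GS, each against the same 3 WT arrays. KO values run from −1.15 (Fmo2) to 0.73 (Papss2), and GS values of Gstm6 (−0.05) and Sult1a1 (0.12) lie near 0.

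Genes around these enzymes were read from lists by role. Of all genes, T3 called 10.6% in WT and 11.6% in Y147F. Between PBS mice 6.87% were called for KO against WT and 2.95% for GS against WT. As background, nuclear receptors and other sensors control many enzymes of these families, and their part in the member values was not tested. Of the 10 sensors tested, 4 fell with T3 in WT. These were Nr1i2, the pregnane X receptor (−1.02), Nr1i3, the constitutive androstane receptor (−0.82), Nr1h4, the bile acid receptor (−0.68), and Hnf4a (−0.37). Of the sensors 0 rose and the other 6 were not called (unadjusted p under 0.05 for 6 of the 10 in all). In Y147F mice 5 fell, among them Nfe2l2, which encodes NRF2 (−0.40), and in KO and in GS limma called 0. The responses of Nr1i2 (1.16 in KO, 0.99 in GS), Nr1i3 (0.89 and 0.90) and Nr1h4 (0.59 and 0.57) were less negative than in WT by test. Mean Nr1i3 was already lower in PBS mice, at 10.89 in KO and 10.98 in GS against 11.58 in WT. In WT T3 mice it was 10.76. In the same order, the PBS means of Nr1i2 were 9.48, 9.56 and 9.81, and those of Nr1h4 11.39, 11.38 and 11.34. Among PBS mice the NRF2 targets had 1 higher gene in KO, Osgin1 (1.23), of 8 tested; in WT 2 rose with T3, Osgin1 (1.45) and Hmox1 (0.49).

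Around Papss2, the list of sulfate activation, transport and removal had 2 genes higher and 1 lower of 11 in WT with T3: Tpst2, a tyrosylprotein sulfotransferase of the Golgi (0.82), Slc26a1, a sulfate transporter (0.41), and Arsa, a lysosomal sulfatase (−0.51). In Y147F 3 rose, Tpst2 (0.80), the Golgi PAPS transporter Slc35b3 (0.42) and Slc26a1 (0.33), and Arsa fell (−0.46). Slc26a1 was higher in KO and GS PBS mice (0.52 and 0.55), as Papss2 was, and its response was smaller than in WT in GS (−0.60). Tpst2 responses were smaller in KO (−0.78) and GS (−0.91). In KO PBS mice Tpst1 was the other called gene of the list (0.39).

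The list of UDP-glucuronic acid supply and return had 0 of 9 genes called by limma in WT with T3, and Ugp2 fell in Y147F (−0.25). In KO PBS mice 3 of the list were higher (Gusb 0.50, Slc35b1 0.38 and Slc35a3 0.25) and 2 lower (Dcxr −0.40 and Xylb −0.34). Ugp2, Ugdh and Slc35d1, also in the list, were not called there. Of 14 genes of glutathione synthesis and turnover, Chac1 (1.12) and Gpx1 (0.22) rose and Cth (−0.41) and Ggt6 (−0.36) fell with T3 in WT. In KO PBS mice Gpx1 was higher (0.34) and Cth (−0.53) and Ggt6 (−0.46) lower. The membrane-bound transferase Mgst3 was lower in KO (−1.33) and in GS (−1.03) PBS mice.

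Other hydrolases and conjugating enzymes were also read. Mgll, the monoglyceride lipase, rose with T3 in WT (1.13), and of 11 hydrolases 1 was higher (Mgll 0.91) and 3 were lower (Bche −0.42, Bphl −0.23 and Pon1 −0.23) in KO PBS mice. Of 14 other conjugating enzymes Glyat, which conjugates glycine, fell with T3 in WT (−0.58). In KO PBS mice 4 were lower, the methyltransferases Nnmt (−2.02), Tpmt (−1.23), Gamt (−0.41) and Gnmt (−0.18). The KO and WT arrays overlapped for Nnmt and Tpmt. Gamt was higher in GS than in KO (0.37). Of 11 exporters and uptake carriers 0 were called by limma in WT with T3. In KO PBS mice Slco1a1 (1.77) and Abcb11 (0.53) were higher and Slco1a4 (−0.98) lower, and in GS Abcb11 (0.51) and Slc10a1 (0.29) were higher.

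Over all 12 comparisons 24 members were called at least once, in 43 differences, and 28 of the tested members in none. Those 28 include Gsta3, Gstm1, Gstp1, Gstz1, Ces1c, Ugt2b5, Ugt2b34, Ugt2b35 and Ugt2b36; their largest difference was that of the dim Ces2b, whose response in KO was lower than in WT by 0.87 (difference −0.87; −0.49 without WT T3 replicate 2). Of these 28, 7 were called under some alternative or without 1 array. For a member called nowhere, these data show only that no difference passed the test with 3 arrays a group.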

How the data were processed

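Total RNA from 24 mouse livers, 200 ng each, was measured on an array of 45101 probe sets. The deposited values are log2 intensities that the authors made with RMA, per the submitters' processing notes. Its version, and whether both submissions were summarised together, are not given in the sources used here. The 6 Y147F columns, deposited by the authors as other than plain log2 values, lacked the decimal mark. It was restored after the digits giving 3 to 16, and 781 of 270606 cells (0.289%) that a spreadsheet could have turned into a day number were set missing; of 810840 intact values damaged the same way, 0 were restored wrongly, which checks only the steps. For Gstm2, 1 cell was missing and was left out of the fit. Of the probe sets 34958 had 1 symbol, 932 several and 9211 none; the first were used. In R 4.3.3 with limma 3.58.1, lmFit and eBayes fitted 8 group means (residual df 16, prior df 4.28), after tests on simulated data. Alternatives were quantile normalisation, no filter or the 60th percentile, averaging all probe sets of a gene, no probe sets with shared-probe suffixes, an intensity trend with robust moderation, array weights, only the arrays compared, only the 18 first arrays, and leaving out each array. Members called with arrays that do not overlap were named, and arrays were printed for those called for T3; of other members, per family, the brightest or those with the smallest p in WT; of lists, at most 4 called. Other genes named were chosen after their values were seen. The members and lists were chosen with earlier results of these data known. The number of arrays limits the precision.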

Additional observations from a re-analysis of the deposited data

Results flagged for a closer look

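For 3 members, the T3 response differed from that of WT mice by limma's test of the difference itself, adjusted over all genes. The Papss2 response was lower by 0.94 in KO (difference −0.94, limma adjusted p = 0.00107) and by 1.30 in GS (difference −1.30, limma adjusted p = 2.33e-05), with 3 arrays in each group. The Fmo2 response was less negative by 1.75 in KO (limma adjusted p = 0.00473) and by 1.54 in GS (limma adjusted p = 0.013). The Sult1b1 response was higher by 0.53 in KO (limma adjusted p = 0.0189), a call that ended without WT T3 replicate 3 (0.0505), WT PBS replicate 2 (0.059), KO T3 replicate 1 (0.0547) or 3 (0.0533), or KO PBS replicate 2 (0.0596). These differences share the WT arrays, and the PBS levels of all 3 genes in KO mice differed from those of WT.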

How the results depend on the processing

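Of 43 called differences, 18 were called in all alternatives and all fits leaving out 1 array; 346 of 377 values under the alternatives and 205 of 288 without 1 array were called, and 0 changed sign. With only the arrays compared, which leaves fewer residual degrees of freedom, the members called were 2 of 4 in number for T3 in WT, 5 against 8 for T3 in Y147F and 9 against 18 for KO against WT PBS mice; for GS against KO PBS mice it ended all 3 calls (Gstm6, Sult1a1 and Sult1b1, limma adjusted p 0.158 to 0.201) and called Gstm2 and Gstt3. Array weights gave 6 members for GS against KO PBS mice, against 3; the cause was not tested. Single settings ended the calls of Gstm5 in Y147F (quantile normalisation 0.0586, no filter 0.0579) and, in KO PBS mice, of Gstm7 (mean of probe sets 0.367), Gstt2 (no filter 0.0512, 18 arrays 0.054) and Ces2e (18 arrays 0.0545). They also ended those of Ces2e in GS (no filter 0.0567, 18 arrays 0.0769) and, for GS against KO, of Gstm6 (18 arrays 0.0746) and Sult1b1 (no filter 0.0527, 18 arrays 0.0746), all limma adjusted p. Another 30 values were called only under an alternative or without 1 array, 7 members among them being called nowhere else. Leaving out 1 array, the members called ranged from 3 to 4 for T3 in WT, 0 to 1 in KO, 0 to 0 in GS and 4 to 8 in Y147F. For response differences they ranged from 2 to 3 for KO and 2 to 2 for GS. For PBS mice they ranged from 10 to 14 in KO, 2 to 5 in GS, 0 to 1 in Y147F and 1 to 3 for GS against KO. No paired analysis was possible because the numbers in the sample titles differ for every array, so groups share none. Dim members (Ces2b, Sult4a1, Ugt2b37) lie near the detection filter, and 8 members below it were not tested.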
